A study of Mus musculus with 2 samples.

Results

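The cells described here were the Ceacam16-rich epithelial cells of adult mouse cochlear explants, 134 of 2913 cells kept from 2 single-cell RNA libraries. A cell was counted as one of them when Ceacam16 made up at least 5 of every 10000 of its unique molecular identifiers (UMIs, each standing for 1 captured RNA molecule), when Epcam or Clu had at least 1 UMI, and when it did not hold Gal at 30 and Cck at 10 per 10000 UMIs together. The last condition removed the Gal and Cck rich epithelium that makes up another large class of these explants. The cells were thus chosen by their own counts of Ceacam16, Epcam, Clu, Gal and Cck, and their labelling as interdental or inner sulcus cells rests on Ceacam16, Clu, Mia, Pla2g7 and P2rx2. The cocktail library held 92 such cells among 1329 kept, and the vehicle library held 42 among 1584.

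Whole cochleae of C57BL/6J mice, 4 to 6 weeks old, were kept in culture. The cocktail group received VPA at 1.5 mM, LiCl at 8 mM, FSK at 20 µM, and siFIR and siMxi1 at 0.02 µM each for 4 days, then ad.Atoh1 for 2 weeks. The vehicle group received sterile water with 0.1% DMSO for 4 days, then ad.Atoh1 for 2 weeks, so the Atoh1 adenovirus was shared by both groups. Each library pooled the sensory epithelium of 5 cultures after 15 min in 0.25% trypsin at 37 °C, with no map from cells to cultures, and Reissner's membrane and the ligament had been partly cut away. Each group was therefore 1 library, no difference between groups could be tested, and every interval below covers counting error only.

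Interdental cells line the upper face of the spiral limbus and secrete the tectorial membrane, the gel sheet that rests on the hair bundles. Inner sulcus cells line the groove between the limbus and the hair cells. Ceacam16 encodes a secreted glycoprotein that joins the tectorins in the striated matrix of that membrane, Otoa encodes otoancorin, which attaches the membrane to the limbus, and Otog and Otogl encode the large mucin-like proteins otogelin and otogelin-like. Slc26a4 encodes pendrin, a chloride and bicarbonate exchanger best known in the cochlea from outer sulcus, root and spindle cells.

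The genes used here lie, in the GRCm38 build with GENCODE annotation, at chr7:19852097-19861299 on the minus strand for Ceacam16, chr14:65968483-65981547 on the plus strand for Clu, chr7:27179742-27181157 on the minus strand for Mia, chr17:43568098-43612201 on the plus strand for Pla2g7 and chr5:110339812-110343212 on the minus strand for P2rx2. Below are the 250 bases before the annotated RefSeq start of 2 genes, GRCm38.p6, plus strand. Otog (chr7:46240737-46240986) is shown because its detection at full depth differed between the libraries, and Hspb1 (chr5:135887669-135887918) because its difference rested on a few cells. Capitals mark the SOX core ACAAAG and the E-box CAGNTG in Otog and the heat shock element core GAANNTTC in Hspb1, searched on both strands.
Otog: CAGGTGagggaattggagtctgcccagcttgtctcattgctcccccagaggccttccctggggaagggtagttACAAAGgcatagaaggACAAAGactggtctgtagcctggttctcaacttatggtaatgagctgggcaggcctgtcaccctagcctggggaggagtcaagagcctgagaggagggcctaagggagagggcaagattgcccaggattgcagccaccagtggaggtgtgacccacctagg
Hspb1: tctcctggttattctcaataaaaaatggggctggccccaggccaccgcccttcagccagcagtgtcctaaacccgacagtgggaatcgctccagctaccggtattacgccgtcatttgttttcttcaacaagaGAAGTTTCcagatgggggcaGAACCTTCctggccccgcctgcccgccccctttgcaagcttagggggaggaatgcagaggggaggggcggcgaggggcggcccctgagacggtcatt
The Otog window held 2 SOX cores and 1 E-box, against 16.5% and 44.8% of 32851 mouse promoter windows of the same length with at least 1 of each. The Hspb1 window held 2 GAANNTTC cores, against 6.69% of the windows with at least 1, and no TTCNNGAA core, which 7.17% held. The Otoa and Mia windows held neither the SOX core nor the E-box.

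The submitters reported about 1400 cells for the cocktail and 1700 for the vehicle, against 1403 and 1688 barcodes in the files, with 19625208 and 23108868 UMIs. Cells with under 500 UMIs, under 300 genes or over 20% mitochondrial UMIs were removed, 74 in the cocktail library and 104 in the vehicle library, and the libraries shared 0 barcodes. The Ceacam16-rich cells had a median of 10806 UMIs in the cocktail library, where they ranged from 522 to 39802, and 12281 UMIs in the vehicle library, where they ranged from 1075 to 28855. The other kept cells had medians of 10391 and 12267 UMIs. Mitochondrial genes took a median of 1.32% of their UMIs in the cocktail library and 1.82% in the vehicle library. No Ceacam16-rich cell was called a doublet by Scrublet, which marked 0 cocktail and 2 vehicle cells in all, too few for that caller to be taken as working, and none held 2 or more genes of another cell type's marker list at 10 per 10000 UMIs.

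Ceacam16-rich cells formed 6.92% of the kept cocktail cells (95% exact binomial interval 5.62 to 8.42) and 2.65% of the kept vehicle cells (1.92 to 3.57). The difference was 4.27 percentage points (Newcombe interval 2.73 to 5.91). Among cells with at least 5000 UMIs the shares were 7.15% in the cocktail library and 2.94% in the vehicle library, and among cells with fewer UMIs they were 6.55% and 1.88%. The share was higher in the cocktail library at both depths, with 1 library a group and no replicate of the dissection. Ceacam16 stood at a median of 16.3 per 10000 UMIs in cocktail cells (5.19 to 73.3) and 13.2 in vehicle cells (5.04 to 57.9), and the ranges overlapped along nearly their whole length. Epcam had a UMI in 87 of the 92 cocktail cells and 41 of the 42 vehicle cells, and Clu in every one. In 6 cocktail cells and 1 vehicle cell membership rested on 1 Ceacam16 UMI.

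**Figure D1:**
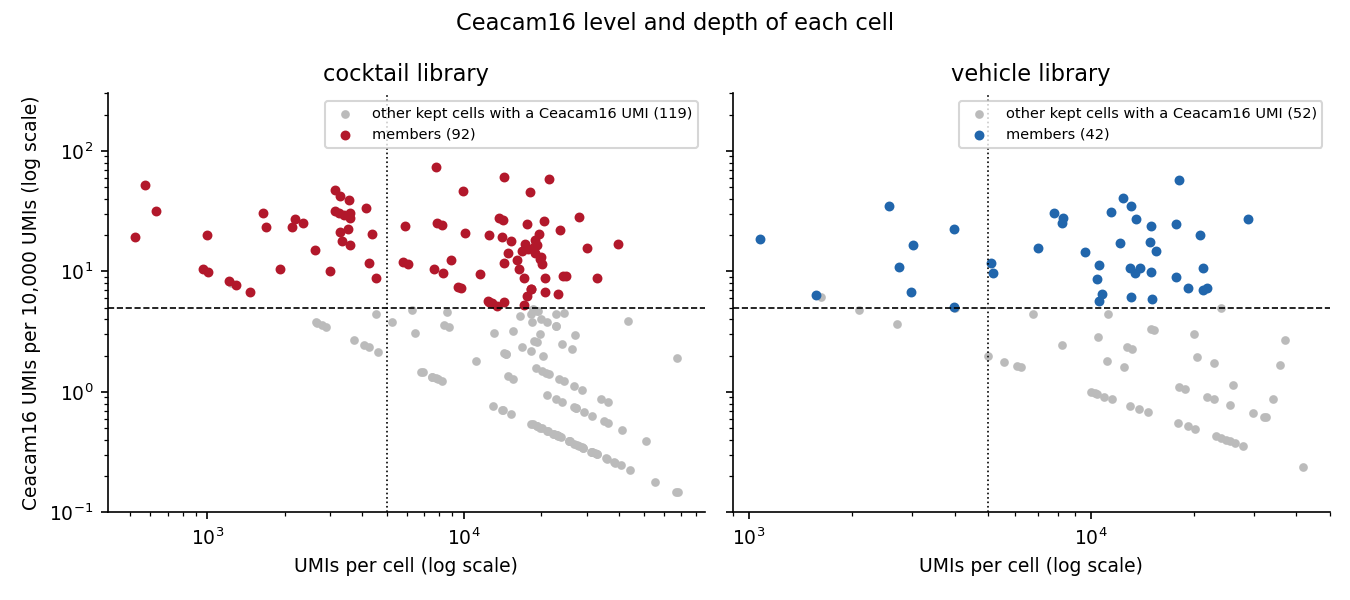
Ceacam16 UMIs per 10000 (vertical, log axis) against total UMIs of the cell (horizontal, log axis) in the cocktail and vehicle libraries. Only kept cells with at least 1 Ceacam16 UMI are drawn, and the dashed line marks the limit of 5 per 10000. The Ceacam16-rich cells number 92 in the cocktail library and 42 in the vehicle library. They range from 522 to 39802 UMIs and from 1075 to 28855 UMIs.

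Just inside the limit, at 5 to under 8 Ceacam16 UMIs per 10000, lay 15 cocktail and 10 vehicle cells. Just outside it, at 2 to under 5, lay 37 cocktail and 14 vehicle cells. Clu was at 58543 CPM (counts per 1000000 UMIs, from the summed counts of a group of cells) inside the limit and 40216 CPM outside it in the cocktail library. Gal was at 14.8 CPM inside and 5965 CPM outside in the same library, and at 16.6 and 1377 CPM in the vehicle library. Both bands leave out the Gal and Cck rich class, and the source of the Gal UMIs outside the limit was not tested. The Ceacam16 limit thus passes through cells that share Clu, and 211 cocktail and 94 vehicle cells had at least 1 Ceacam16 UMI, of which 93 and 43 passed the limit.

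Against all other kept cells, the Ceacam16-rich cells had high levels of several tectorial membrane, gap junction and ion transport genes and of early response genes, and low levels of cell cycle, mesenchymal and acute phase genes. The same cells were used to choose and to measure, so these values describe them and are no test. Of 13280 genes with at least 50 UMIs in each library, 4.28% were at least 2-fold higher and 23.6% at least 2-fold lower in both libraries. Taken library by library, 5.51% of those genes were at least 2-fold higher and 31.4% at least 2-fold lower in the cocktail library, and 7.37% higher and 33.7% lower in the vehicle library, and the counts per library below are read against these shares. Ceacam16 itself was at 1754 CPM in these cells and 18.2 CPM in the other cells of the cocktail library, and at 1769 and 5.51 CPM in the vehicle library.

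The other 4 marker genes followed Ceacam16. Clu, clusterin, a secreted chaperone, was at 59804 CPM in the Ceacam16-rich cells against 5969 CPM in other cells of the cocktail library, and at 66671 against 3588 CPM in the vehicle library. Mia, a small secreted protein first known from cartilage and melanoma, was at 5055 against 593 CPM in the cocktail library and 4551 against 332 CPM in the vehicle library. Pla2g7, a secreted phospholipase that inactivates platelet-activating factor, was at 549 against 80.3 CPM and at 621 against 42.9 CPM in the cocktail and vehicle libraries. P2rx2, an ATP-gated cation channel, was at 498 against 54.1 CPM and at 562 against 38.7 CPM. Mia, Pla2g7 and P2rx2, which the rule did not use, were thus higher here in both libraries, while Ceacam16 and Clu were part of the rule. The gap to other Epcam-positive cells outside the Gal and Cck rich class was smaller, with P2rx2 at log2 ratios of 1.95 in the cocktail library and 2.46 in the vehicle library, against 8.00 and 8.85 relative to the Gal and Cck rich cells.

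The tectorial membrane genes were uneven. Otoa was at 350 CPM in the Ceacam16-rich cells against 45.5 CPM in other cells of the cocktail library (log2 ratio 2.94, counting interval 2.76 to 3.12), and at 279 against 25.6 CPM in the vehicle library (3.45, 3.17 to 3.71). Otog was at 496 against 58.4 CPM (log2 ratio 3.09) and at 356 against 50.1 CPM (2.83) in the cocktail and vehicle libraries. Tecta, alpha-tectorin, a main protein of the membrane's matrix, had 0 UMIs in all 134 cells, while the other kept cells of the cocktail held 25.9 CPM and those of the vehicle 47.1 CPM. Tectb, beta-tectorin, and Otogl had 0 UMIs in cocktail cells and stood at 32.4 and 80.9 CPM in vehicle cells. Col11a2, a fibrillar collagen chain of the membrane, was at 78.9 against 12.6 CPM and 72.8 against 15.2 CPM, while Col2a1 and Col9a1 had 0 UMIs. Of the 12 listed tectorial membrane proteins and collagens, 11 reached 50 UMIs. Of these, 4 were at least 2-fold higher and 5 at least 2-fold lower in the cocktail library, and 6 higher and 4 lower in the vehicle library.

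The ion transport genes included ones known from other cochlear cells. Slc26a4 was at 341 CPM in the Ceacam16-rich cells against 27.8 CPM in other cells of the cocktail library, and at 425 against 19.4 CPM in the vehicle library, among the 5 leading genes. Kcnj16, an inward rectifier potassium channel subunit, was at 155 against 12.3 CPM and 154 against 9.10 CPM, and its partner Kcnj10 at 32.3 against 3.63 CPM and 40.4 against 2.97 CPM. The connexin genes Gjb2 and Gjb6, which form the gap junctions between cochlear supporting cells, were at 215 against 62.4 CPM and 43.7 against 8.23 CPM in the cocktail library, and at 216 against 44.0 CPM and 60.7 against 6.39 CPM in the vehicle library. Gja1, another connexin, had 0 UMIs. Of 16 listed gap junction and ion transport genes, 14 reached 50 UMIs, of which 8 in the cocktail library and 9 in the vehicle library were at least 2-fold higher. The list's median log2 ratio was 1.59 and 2.09, beside −0.46 and −0.47 over all genes.

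Pendrin and otoancorin transcripts were found in the same cells rather than in separate ones. Among the Ceacam16-rich cells with at least 5000 UMIs, 46 of 59 cocktail cells (78.0%) and 29 of 34 vehicle cells (85.3%) carried UMIs of both Otoa and Slc26a4. The share was 26.1% and 14.1% in other Epcam-positive cells of that depth, and 5.08% and 3.54% in the Gal and Cck rich cells. With P2rx2 as a further requirement the shares were 72.9% in the cocktail and 82.4% in the vehicle cells. They were 19.5% and 9.98% in the other Epcam-positive cells, and 0.847% and 0 of 113 in the Gal and Cck rich cells. Of the tectorial membrane genes that the rule did not use, Otoa and Otog thus met the interdental label and Tecta did not. Otogl and Tectb had 0 UMIs in cocktail cells. In the vehicle library 39 of 40 Otogl UMIs and all 16 Tectb UMIs lay in 2 cells, so these genes did not meet it either. Ceacam16 was high by the rule itself. Slc26a4 and P2rx2 in the same cells leave interdental, inner sulcus and outer sulcus origin undecided by these markers, and the cells are called Ceacam16-rich here.

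**Figure D2:**
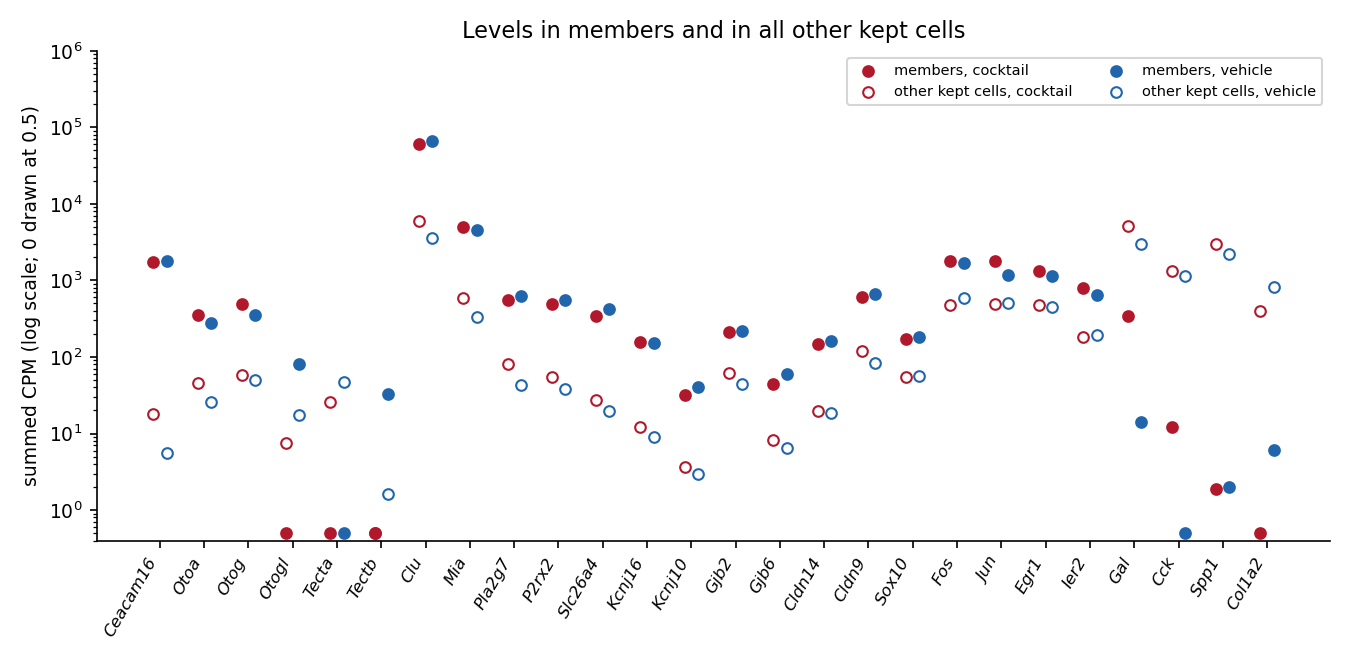
Summed CPM (vertical, log axis, with 0 drawn at 0.5) of 26 genes (horizontal) in Ceacam16-rich cells (filled, named members in the key) and all other kept cells (open) of the cocktail and vehicle libraries. Ceacam16, Clu, Mia, Otoa, Otog, Slc26a4 and Kcnj16 stand above the other cells in both libraries, and Gal and Spp1 below them.

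Further leading genes came from lipid and signalling enzymes. Ppp1r1b, a phosphatase inhibitor controlled by cAMP, was at 127 CPM in the Ceacam16-rich cells against 5.30 CPM in other cells of the cocktail library and 131 against 3.60 CPM in the vehicle library. Degs2, a sphingolipid desaturase and hydroxylase, was at 161 against 11.6 CPM and 216 against 5.06 CPM. Elovl1, an elongase of very long fatty acids, was at 411 against 39.9 CPM and 463 against 34.1 CPM, and Ces1d, a carboxylesterase, at 352 against 31.8 CPM and 421 against 26.1 CPM. Zmynd12, Adig, Hhatl, Efhd1 and Fndc7 completed the 15 leading genes, with log2 ratios of 3.34 to 4.23 in the cocktail library and 4.14 to 4.99 in the vehicle library. Cldn9 and Cldn14, tight junction claudins needed for hearing, were at 611 against 119 CPM and 149 against 19.5 CPM in the cocktail library, and at 665 against 84.6 CPM and 162 against 18.8 CPM in the vehicle library. Of 18 junction and keratin genes, 6 in the cocktail library and 8 in the vehicle library were at least 2-fold higher.

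Spp1, osteopontin, led the genes that were lower, at 1.90 CPM in the Ceacam16-rich cells against 3026 CPM in other cells of the cocktail library and 2.02 against 2193 CPM in the vehicle library. Lgals1, a galectin, was at 3.80 against 1006 CPM and 4.04 against 1121 CPM. Col1a2, Bgn, Igfbp4, Cp and Cck followed, with at most 12.4 CPM in these cells and at least 244 CPM in the others. Lcn2, a siderophore-binding acute phase protein, was at 521 against 5713 CPM and 730 against 7598 CPM, and 11 of the 12 acute phase and complement genes were at least 2-fold lower in each library, Clu being the exception. Of 16 cell cycle genes, 14 in the cocktail library and 15 in the vehicle library were at least 2-fold lower (medians −4.20 and −3.87), and Top2a, the mitotic topoisomerase, had 0 UMIs. Of 17 mesenchymal transition genes, 14 and 15 were at least 2-fold lower. Of 14 Notch pathway genes, 9 in each library were, against 31.4% and 33.7% of all genes, with the receptor Notch2 at 18.1 against 48.9 CPM and 6.07 against 43.7 CPM. Of 12 Wnt target genes, 6 in each library were, with the cyclin gene Ccnd1 at 45.6 against 217 CPM and 16.2 against 228 CPM.

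Chemokine genes were low as well, while antigen presentation and stress genes were mixed. Of 12 chemokine and inflammation genes with 50 UMIs, 11 in the cocktail library and 9 in the vehicle library were at least 2-fold lower, with Ccl2, a chemokine that draws monocytes, at 8.55 against 290 CPM in the cocktail library and 0 against 94.7 CPM in the vehicle library. B2m, the light chain of class I antigen-presenting molecules, was at 309 against 852 CPM and 222 against 742 CPM in the cocktail and vehicle libraries. Of 15 antigen presentation genes, 8 and 7 were at least 2-fold lower, beside 31.4% and 33.7% of all genes, and H2-T23, a nonclassical class I gene, was above the other cells at 158 against 113 CPM and 119 against 56.1 CPM. Of 14 p53 targets, 6 and 9 were at least 2-fold lower. Cdkn1a, a p53 target that halts the cell cycle, was at 120 against 414 CPM and 119 against 612 CPM, and Trp53inp1, another p53 target, at 109 against 45.4 CPM and 89.0 against 47.2 CPM. Of 13 integrated stress response genes, 5 in each library were at least 2-fold lower and 1 was higher, Atf3, a stress-induced transcription factor, at 651 against 176 CPM and 467 against 197 CPM. Of 9 heat shock genes, 1 was 2-fold higher in each library, Dnajb1, a cochaperone, at 176 against 59.4 CPM and 135 against 63.7 CPM, while 1 in the cocktail library and 2 in the vehicle library were 2-fold lower. Ctsb, a lysosomal protease, was at 2504 against 1096 CPM and 2928 against 862 CPM. Tgfb2, a growth factor of the mesenchymal transition list, was at 252 against 110 CPM and 317 against 92.0 CPM.

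Many markers of other cell types were at 0, but Epyc, Lum and Sox10 were not. All 4 otic mesenchyme markers, 3 of 4 endothelial markers and at least 4 of 5 macrophage markers had 0 UMIs in each library, as did 4 of 8 hair cell markers in cocktail cells and 7 of 8 in vehicle cells. The 8 hair cell markers summed to 58.9 CPM in Ceacam16-rich cells against 91.6 CPM in other cells of the cocktail library, and to 32.4 against 212 CPM in the vehicle library. The 5 fibroblast markers summed to 146 against 806 CPM and 156 against 1156 CPM, most of it from Lum, a matrix proteoglycan, at 134 and 140 CPM in the Ceacam16-rich cells. The Vmo1 and Tecta epithelium markers summed to 7.60 against 117 CPM and 8.09 against 315 CPM. Sox10, shared by glia and otic epithelium, was higher here, at 173 against 55.0 CPM and 184 against 56.3 CPM. Of 6 supporting cell markers 4 in each library were at least 2-fold lower, but Epyc, a small proteoglycan, was at 523 against 311 CPM and 473 against 221 CPM, so that the list summed to 542 against 383 CPM in the cocktail library and 534 against 316 CPM in the vehicle library.

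Early response genes were high. The 15 listed genes summed to 9946 CPM in the Ceacam16-rich cells against 3379 CPM in the other cells of the cocktail library, and to 8142 against 3401 CPM in the vehicle library, and 10 of them were at least 2-fold higher in each library. Fos was at 1768 against 481 CPM and 1711 against 595 CPM, and Ier2 at 797 against 183 CPM and 637 against 193 CPM. Pde4b, a cAMP phosphodiesterase, was at 1403 against 547 CPM and 1704 against 367 CPM.

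The cells were not uniform. Among those with at least 5000 UMIs, Otog ranged from 0 through a median of 2.82 to 27.8 per 10000 UMIs in 59 cocktail cells, and from 0 through 1.88 to 31.4 in 34 vehicle cells. Slc26a4 ranged from 0 through 2.40 to 28.0 in cocktail cells and from 0 through 2.62 to 27.2 in vehicle cells. Otog had a UMI in 54 of 59 cocktail cells (91.5%) and 21 of 34 vehicle cells (61.8%), a difference of 29.8 percentage points (12.4 to 47.2), while 13 of 118 and 5 of 113 Gal and Cck rich cells at that depth had one. The marker genes were only loosely tied from cell to cell, with a Spearman rho of 0.14 between Otoa and Slc26a4 over 51 cocktail cells and 0.21 over 31 vehicle cells, in sparse counts.

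Small sets of cells stood apart from the rest, and they were marked off after their values were seen. In 9 cocktail cells and 1 vehicle cell Hes6 had at least 4 UMIs. The cocktail cells among them had 4362 to 32896 UMIs, and Epcam was detected in all 9. Hes6, a bHLH factor found downstream of Atoh1 in young hair cells, was at 1291 CPM in those 9 cells against 17.0 CPM in the other cocktail cells with at least 5000 UMIs. Rbfox1, a splicing regulator, was at 1026 against 1.21 CPM, Apoc3, a lipoprotein component, at 1331 against 4.85 CPM, and Crip1 at 3566 against 35.1 CPM. Atoh1 had 12 UMIs in the Ceacam16-rich cocktail cells and 1 in the vehicle cells, all of them in the Hes6 cells, where it stood at 81.5 CPM in the cocktail library. Marker genes were low in the Hes6 cells, with Slc26a4 at 33.96 against 396 CPM, P2rx2 at 13.6 against 571 CPM, Kcnj16 at 13.6 against 177 CPM and Pla2g7 at 129 against 623 CPM.

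Genes of the Hes6 cells were also genes of the Gal and Cck rich class. That class stood at 536 CPM for Hes6, 1709 CPM for Rbfox1, 535 CPM for Apoc3 and 84.0 CPM for Atoh1 in the cocktail library. Gal itself was at 1685 CPM in the 9 Hes6 cells, 238 of their UMIs being in 1 cell, against 20875 CPM in that class, and Cck at 74.7 against 5628 CPM. Crip1 was at 92.7 CPM in that class, below the 3566 CPM of the Hes6 cells. Whether such cells are a mixture of 2 cells in 1 droplet was not tested.

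In 2 vehicle cells, of 19266 and 20829 UMIs, Otogl had at least 5 UMIs. They held 39 of the 40 Otogl UMIs, all 16 Tectb UMIs, 104 of the 107 Nckap5 UMIs and all 62 Fabp3 UMIs of the vehicle cells. Otog was at 1122 CPM in them against 291 CPM in the other vehicle cells of that depth, and Sox2, a factor of supporting cells, at 200 against 23.7 CPM. Mia, Otoa, Slc26a4 and Pla2g7 had 0 UMIs in both, while P2rx2 stood at 549 CPM. The cocktail cells held no cell of this kind, 0 of 92, which allows a share of up to 3.93% by the exact binomial bound.

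**Figure D3:**
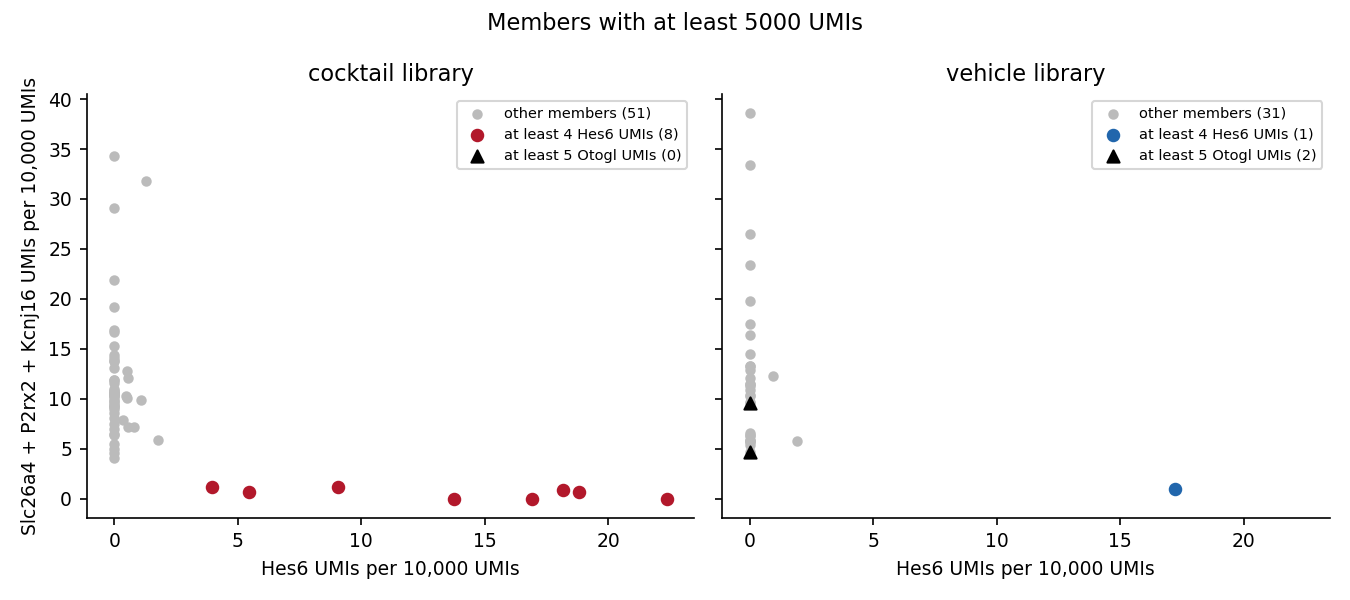
Sum of Slc26a4, P2rx2 and Kcnj16 UMIs per 10000 (vertical) against Hes6 UMIs per 10000 (horizontal) in each Ceacam16-rich cell with at least 5000 UMIs, cocktail and vehicle, so that 1 of the 9 cocktail Hes6 cells is not drawn. The Hes6 cells lie at the low end of the ion transport genes, where Slc26a4 was at 33.96 CPM in the 9 cocktail cells.

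Between the libraries, the marker genes that the rule did not use differed by less than 1.5-fold. The cocktail over vehicle log2 ratio was 0.15 for Mia (0.08 to 0.22), −0.18 for Pla2g7 (−0.38 to 0.03) and −0.18 for P2rx2 (−0.39 to 0.04). Ceacam16 and Clu stood at −0.01 and −0.16, and the Ceacam16 value follows in large part from the limit that chose the cells in both libraries. Otoa was at 350 CPM in cocktail cells and 279 CPM in vehicle cells (log2 ratio 0.33, 0.04 to 0.62), and Otog at 496 and 356 CPM (0.48, 0.23 to 0.73). Without the Hes6 and Otogl cells Otog was at a log2 ratio of 0.93 (0.65 to 1.22), with the counting interval clear of 0 in both settings. Of 4447 genes with at least 50 UMIs over both libraries, 101, or 2.27%, were at least 2-fold higher in cocktail cells, and 55, or 1.24%, at least 2-fold lower. The median log2 ratio over all of them was −0.01. With 1 library a group, cocktail, culture pool and library cannot be told apart.

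Many of the largest differences were carried by the 12 Hes6 and Otogl cells. Apoc3 had 217 UMIs in cocktail cells and 3 in vehicle cells, 206 and 6.07 CPM, a log2 ratio of 5.09 (3.52 to 7.38), and 196 of the cocktail UMIs lay in the 9 Hes6 cells. Rbfox1 was at 147 CPM in cocktail and 16.2 CPM in vehicle cells (3.19), Hes6 at 196 and 42.5 CPM (2.20, 1.55 to 2.93), Timp3, a metalloproteinase inhibitor, at 96.9 and 18.2 CPM (2.41), and Crip1 at 538 and 168 CPM (1.68). Without the 12 cells the ratio was −0.12 for Timp3 and −0.06 for Crip1, and 1.39 for Hes6 with an interval from −0.42 to 3.81. Ucma, a secreted cartilage protein, had 58 UMIs in cocktail cells and 0 in vehicle cells, at least 9.08-fold higher against a floor of 3 counts per library. Of those UMIs 52 lay in the 9 Hes6 cells, and the 6 left without the 12 cells (6.63 CPM) give no fold. Tppp3, Ckmt1, Thrsp and Cox8b, at ratios of 2.27 to 3.61, completed the 12 leading genes together with Gal and Lcn2. Without the 12 cells Thrsp was at −0.29, Ckmt1 at 0.97 (−1.35 to 4.25) and Cox8b at 3.93 (1.34 to 9.28, on 31 and 1 UMIs), and Tppp3 had 1 and 2 UMIs. Gal was at 342 and 14.2 CPM, with 238 of its 360 cocktail UMIs in 1 cell. Lcn2 was at 521 and 730 CPM, the lower value being in cocktail cells, with 342 of the 361 vehicle UMIs and 245 of the 548 cocktail UMIs in 1 cell each. It ranked among the higher genes only because the ranking leaves out the top cell of each library.

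Among the lower genes, Ptgds, Txnip, Aebp1, Tstd1, Car14, Hs3st1 and Nrcam also lay at least 2-fold lower without the 12 cells. Ptgds, which makes prostaglandin D, was at 96.0 CPM in cocktail and 338 CPM in vehicle cells, a log2 ratio of −1.82 (−2.19 to −1.45) and of −1.93 without the 12 cells. The other kept cells showed a like ratio, −1.86, with 60.3 CPM in cocktail and 219 CPM in vehicle libraries. Txnip, an inhibitor of thioredoxin, was at 28.5 and 107 CPM (−1.91, and −1.84 without the 12 cells), against −0.18 in other kept cells. Aebp1 was at 45.6 and 125 CPM (−1.46 and −1.41), Tstd1 at 39.0 and 109 CPM (−1.49 and −1.38), and Car14, a carbonic anhydrase, at 15.2 and 107 CPM (−2.82 and −2.12), with 19 of its 53 vehicle UMIs in the 2 Otogl cells. In the other kept cells the ratio was −0.17 for Aebp1, 0.68 for Tstd1 and −0.51 for Car14. In cells under 5000 UMIs alone the Ptgds ratio was 0.056, and after thinning to 1000 UMIs a cell the Txnip ratio was 0.17. Tstd1 thus ran opposite ways in these cells and in the rest, and that difference was not tested.

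The ratios of the other lower genes, Hs3st1 and Nrcam among them, lay nearer 0, or above it, without the 12 cells. Nckap5 was at 4.75 CPM in cocktail and 216 CPM in vehicle cells (−5.51, and −0.29 without the 12 cells). Fabp3, a fatty acid carrier, had 2 UMIs in cocktail and 62 in vehicle cells (−6.04, −9.12 to −4.13). Rorb, a nuclear receptor, and Kif21a, a kinesin, were at −3.81 and −3.09 over all cells, and at 0.56 and 0.43 without the 12. Hs3st1, Sorbs2 and Nrcam were at −4.44, −2.88 and −2.06 over all cells, and at −1.51, −0.61 and −1.15 without the 12. Otogl, with 0 cocktail and 40 vehicle UMIs, was at least 28.4-fold lower, and Tectb, with 0 and 16, at least 11.4-fold lower. Of the 101 genes that were higher, 26 were still at least 2-fold higher without the 12 cells, 22 were not and 53 fell under 50 UMIs. Of the 55 that were lower, 23 still were, 8 were not and 24 fell under 50 UMIs. Among the other kept cells 4 of the 101 and 3 of the 55 were also 2-fold apart in the same direction. The sign was the same there for 69 of the 101 and 32 of the 55. Of all 4447 genes, 28 were at least 2-fold higher and 15 at least 2-fold lower in the other kept cells, and 2202 lay above 0.

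**Figure D4:**
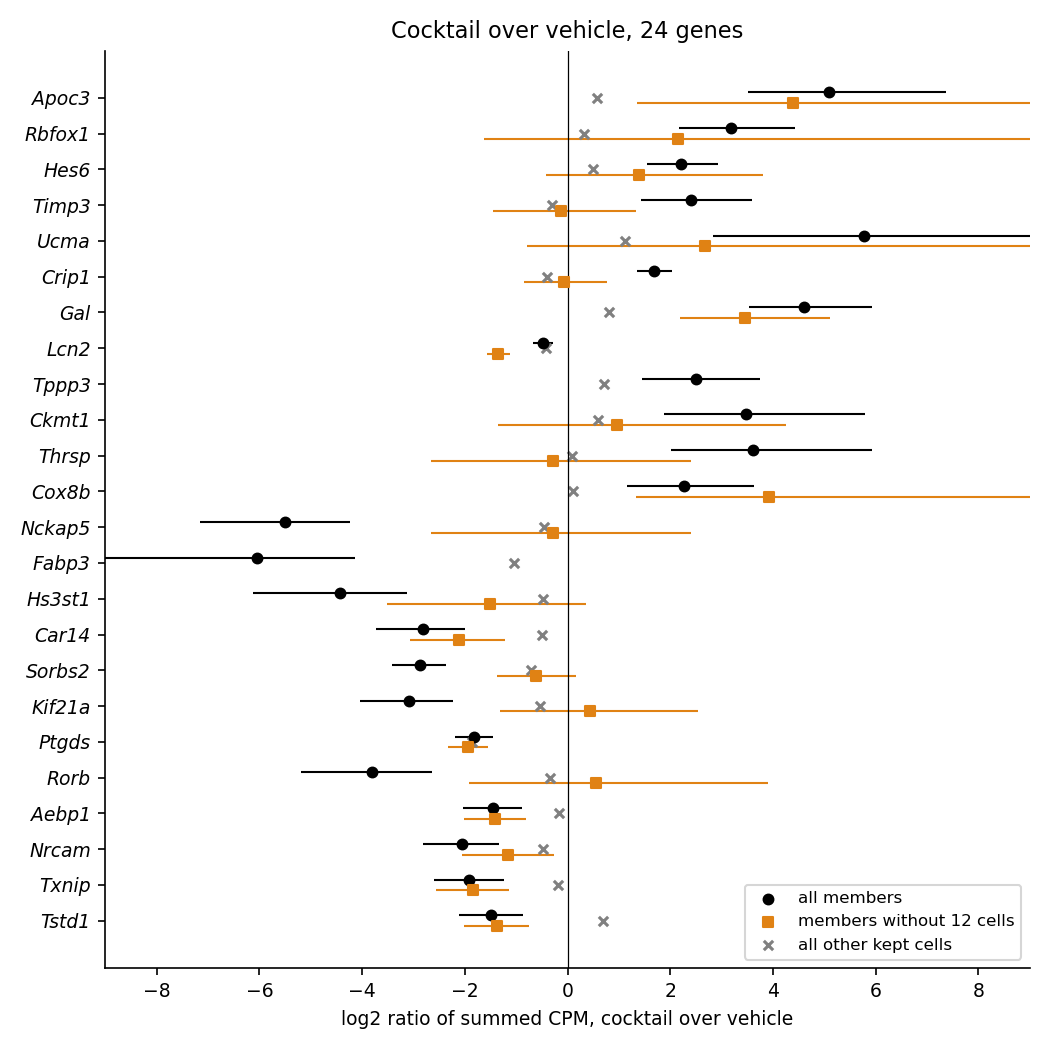
Cocktail over vehicle log2 ratio (horizontal) of the 24 leading genes in all Ceacam16-rich cells, in those without the 12 Hes6 and Otogl cells, and in all other kept cells (crosses), with lines for the 95% counting intervals, cut at the edges of the axis. Ptgds, Txnip, Aebp1, Tstd1, Car14, Hs3st1 and Nrcam stay below −1 without the 12 cells. Timp3, Crip1, Kif21a and Rorb move to between −0.12 and 0.56.

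Heat shock, interferon and secretory genes differed in single members. Hspb1, a small heat shock protein, was at 1207 CPM in cocktail and 439 CPM in vehicle cells (log2 ratio 1.46, 1.25 to 1.67), but at 0.19 (−0.05 to 0.44) without the 12 cells, since the 9 Hes6 cells stood at 5414 CPM. Ifitm3, an interferon-induced membrane protein, was at 638 and 291 CPM (1.13, 0.87 to 1.40), and at 1.11 without the 12 cells. Irf1 and Iigp1, 2 other interferon-induced genes, were lower, at 20.9 and 66.7 CPM (−1.67) and 53.2 and 164 CPM (−1.62). Of 13 interferon genes with 50 UMIs, 7 lay above 0 with a median of 0.06, while the same 13 genes all lay above 0 in the other kept cells with a median of 0.64. That difference was not tested. Sdf2l1, an endoplasmic reticulum chaperone component, was at 121 and 56.6 CPM (1.09, 0.49 to 1.74). Secretory pathway genes lay above 0 in 11 of 13 cases (median 0.19), and early response genes in 12 of 14 (median 0.30). Jun was at 1810 and 1163 CPM (0.64, 0.50 to 0.78). Of all 4447 genes, 2171 lay above 0 in the Ceacam16-rich cells and 2202 in the other kept cells.

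Of the genes the siRNAs and virus name, Mxi1 was at 73.2 CPM in cocktail and 103 CPM in vehicle cells (−0.50, −1.02 to 0.04), against −1.01 in other kept cells. Puf60, the gene of the FIR splicing and transcription factor, was at 67.5 and 54.6 CPM (0.31, −0.35 to 1.002), against 0.00 in other kept cells. Atoh1 UMIs were found in 5 of 59 cocktail and 1 of 34 vehicle cells with at least 5000 UMIs. They were found in 98 of 333 and 92 of 441 other Epcam-positive cells of that depth, and in 65 of 118 and 54 of 113 Gal and Cck rich cells. Reads of the viral Atoh1 and of the mouse gene cannot be told apart.

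Cells with fewer than 5000 UMIs made up 35.9% of the cocktail cells (33 of 92) and 19.0% of the vehicle cells (8 of 42), against 38.1% and 27.1% of the other kept cells. Their medians were 2998 and 2866 UMIs, against 16754 and 13296 UMIs in the deeper cells. The 8 shallow vehicle cells held 21903 UMIs in all, so their values are the least precise. Of 1521 genes with 50 UMIs in each library, 6 were at least 2-fold higher in shallow cells of both libraries, 0.394%, and 68, or 4.47%, at least 2-fold lower. In 65 of those 68 the shallow vehicle cells held 3 or fewer UMIs.

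All 5 marker genes were present in shallow cells, some at other levels than in deep cells. Ceacam16 was at 2385 CPM in shallow against 1699 CPM in deep cocktail cells and 1507 against 1781 CPM in vehicle cells, values set in part by the rule, since a shallow cell passes its limit on 1 or a few Ceacam16 UMIs. Clu was at 113125 against 55164 CPM in cocktail cells (1.04, 1.005 to 1.07) and at 67845 against 66617 CPM in vehicle cells (0.03, −0.05 to 0.10), so that only the cocktail shallow cells had more. Mia was lower in both, at −0.34 and −0.41, and P2rx2 lay at 0.31 and −0.17 with intervals that span 0. Otoa was at 427 against 343 CPM in cocktail cells (0.32, −0.22 to 0.82) and 685 against 260 CPM in vehicle cells (1.40, 0.52 to 2.17). The shallow vehicle value rested on 15 UMIs, of which 8 lay in 1 cell. After each cell was thinned to 1000 UMIs, which left out 5 shallow cocktail cells, P2rx2 had a UMI in 35.7% of shallow and 33.9% of deep cocktail cells, and in 37.5% and 32.4% of vehicle cells.

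The 6 higher genes were Camk1d, Cmss1, Lars2, Cdk8, Gm42418 and Metap1d, of which the last 3 were named after their values were seen. Lars2, the mitochondrial leucyl-tRNA synthetase, was at 439 against 163 CPM in cocktail cells (1.43) and 1415 against 171 CPM in vehicle cells (3.05), and Gm42418 at 11180 against 5237 CPM (1.09) and 30544 against 5008 CPM (2.61). Camk1d, a calcium and calmodulin kinase, was at 475 against 177 CPM (1.43) and 1187 against 235 CPM (2.34), and Cmss1 at 902 against 384 CPM (1.23) and 1918 against 518 CPM (1.89). Mitochondrially encoded genes summed to 12153 against 14624 CPM in cocktail cells. There 10 of 12 lay below 0, where only 1126 of all 3194 genes lay above 0. In vehicle cells they summed to 40953 against 15992 CPM, and 10 of 12 were at least 2-fold higher, where 5.48% of all genes were.

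Early response and keratin genes were lower in shallow cells. Jun was at 665 against 1909 CPM in cocktail cells (−1.52, −1.93 to −1.14) and 365 against 1200 CPM in vehicle cells (−1.72, −2.93 to −0.73). Klf6 was at 94.9 against 534 CPM in cocktail cells (−2.49), and had 0 UMIs in shallow against 353 CPM in deep vehicle cells. Krt18, a keratin of simple epithelia, was at 202 against 438 CPM (−1.12) and 137 against 472 CPM (−1.78), the last on 3 shallow UMIs. After thinning, Jun had a UMI in 42.9% of shallow and 64.4% of deep cocktail cells, and in 37.5% and 64.7% of vehicle cells. The early response list summed to 5708 against 10314 CPM in cocktail cells, where 12 of 14 genes lay below 0 (median −0.74), and to 2831 against 8388 CPM in vehicle cells, where all 13 did (median −1.57). The medians over all genes were −0.23 and −0.27. Akap12, Egr1, Map1b, Atf3, Fbxo32 and Npm1 completed the lower named genes, at −0.57 to −1.42 in cocktail cells and −0.69 to −3.41 in vehicle cells.

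Malat1, a nuclear long noncoding RNA, divided the cells within each depth class. It was at 14040 against 22247 CPM in shallow against deep cocktail cells (−0.66) and 26572 against 23674 CPM in vehicle cells (0.17). All 582 UMIs of the shallow vehicle cells lay in 2 of the 8 cells, with 231 and 351. In the cocktail library, 2 of the 33 shallow cells held 509 and 379 of 1183 UMIs. The shallow sums thus rested largely on these cells. Under 50 Malat1 UMIs per 10000, a limit set after the values were seen, fell 24 of 33 shallow cocktail cells (72.7%) and 6 of 8 shallow vehicle cells (75.0%), against 16 of 59 (27.1%) and 9 of 34 (26.5%) deep cells. The other kept deep cells had 26.6% and 19.0% under that limit. Among deep cells without the Hes6 and Otogl cells, Malat1 and the early response sum had a Spearman rho of 0.66 over 51 cocktail cells and 0.61 over 31 vehicle cells, given as a description of cells that share a library. The Malat1-poor deep cells had a median of 3307 genes in the cocktail library and 3126 in the vehicle library, against 4509 and 3895 in the other deep cells. The part of Malat1, and of RNA retained per cell, in the shallow against deep values was not tested.

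**Figure D5:**
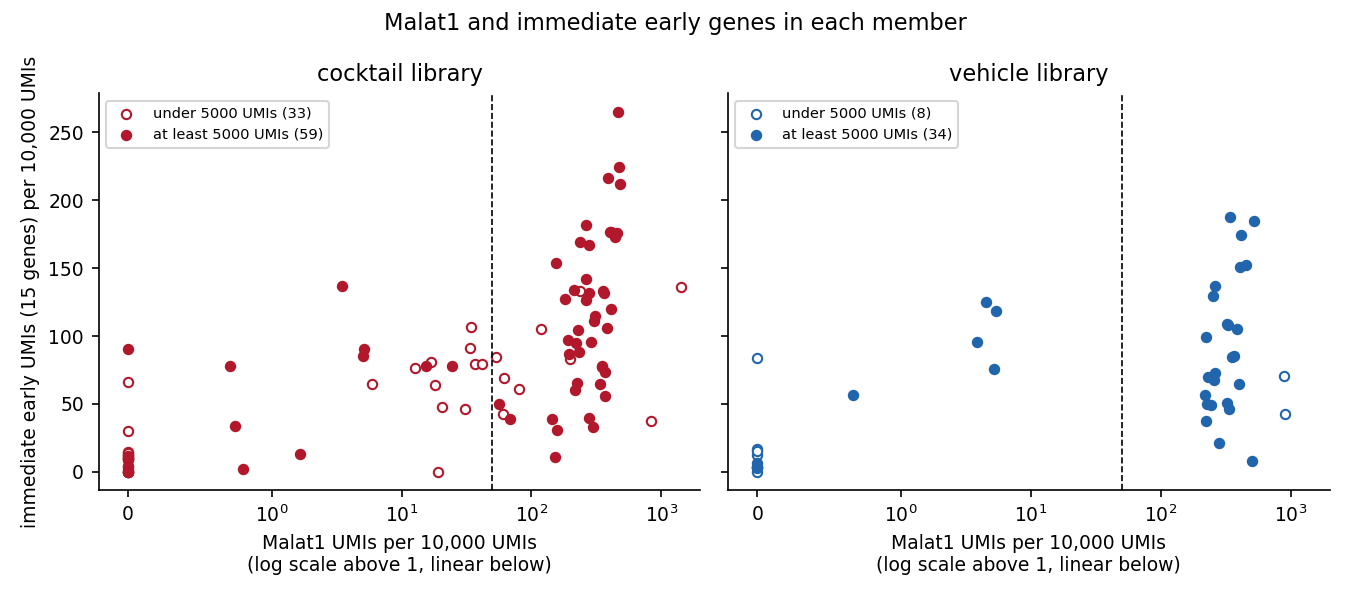
Sum of 15 early response genes per 10000 UMIs (vertical) against Malat1 UMIs per 10000 (horizontal, log axis above 1 and linear below) in each Ceacam16-rich cell, cocktail and vehicle, with open points for cells under 5000 UMIs. Of the shallow cells, 24 of 33 cocktail and 6 of 8 vehicle cells lie under 50 Malat1 UMIs per 10000.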

How the data were processed

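Per the file headers and the deposited matrices, the authors' values are raw UMI counts per gene and barcode from cellranger 5.0.0, and the submitters' processing notes list STAR, Cell Ranger 5.0 and Seurat 3.2.2, with GRCm38 and mm10 as builds. Both libraries use a 10x Genomics 3′ chemistry, and other steps are not given in the sources used here. The counts of 31053 genes were filtered and summed per group of cells (numpy 2.4.6, scipy 1.17.1, pandas 2.3.3, with Scrublet run through scanpy 1.11.5) and scaled to CPM. A log2 ratio of summed CPM has an exact conditional 95% counting interval, and where a group had 0 UMIs 0.5 counts were added to both. Shares have exact binomial intervals and their differences Newcombe intervals. All cover counting error only. The interval code was tested on simulated data. A gene counts as called at 2-fold among genes with at least 50 UMIs. Genes were named by the bound of the interval nearest 0 without each group's top cell, the first 15 and 8 for identity, 12 each way between libraries and up to 10 each way for depth, plus leading genes of each list. Mitochondrial, ribosomal and sex-linked genes were left out of the naming. Members and lists were chosen with earlier results of these data known. Gene positions are from GENCODE M21, which matched 31011 of the 31053 gene IDs, and promoter sequences are RefSeq, GRCm38.p6. Alternatives covered limits on Ceacam16, Epcam, depth, counts and fold, thinning to 1000 UMIs, the highest cell, doublets and the Hes6, Otogl and Malat1 sets.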

Additional observations from a re-analysis of the deposited data

How the results depend on the processing

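No paired analysis was possible because each group is 1 library, and for the same reason no library could be left out. The Hes6, Otogl and Malat1 alternatives and, for identity, the Ceacam16, Epcam and depth settings were chosen after seeing the data. The identity counts stayed within 531 to 607 genes higher and 3098 to 3490 lower under every setting run. The difference in share was 6.17 percentage points with Ceacam16 at 2 per 10000, and 3.34 to 4.85 under the other settings run. The counts of genes higher and lower in cocktail cells (101 and 55) moved to 337 and 222 at 20 UMIs, 9 and 2 at 200 UMIs, 309 and 310 at 1.5-fold, 25 and 21 in cells under 5000 UMIs, 6 and 3 after thinning, and 40 and 35 without the Hes6 and Otogl cells. The lower count alone moved to 202 with the mean CPM per cell and to 26 with Ceacam16 at 10 per 10000. The counts higher and lower in shallow cells (6 and 68) moved to 21 and 214 at 20 UMIs, 2 and 5 at 200 UMIs, 18 and 168 at 1.5-fold and 3 and 218 without the highest cell. The higher count moved to 0 with the mean CPM per cell and 26 in cells with at least 50 Malat1 UMIs per 10000. The lower count moved to 31 with Ceacam16 at 10 per 10000, 128 with a depth limit of 3000, 9 with a limit of 10000 and 41 without the Hes6 and Otogl cells. Turned signs were 0.056 for Ptgds in cells under 5000 UMIs, 0.17 for Txnip after thinning, and 0.53 for Akap12 in vehicle cells with a depth limit of 10000. Without the Hes6 and Otogl cells they were −0.12 for Timp3, −0.063 for Crip1, −0.29 for Thrsp, 0.43 for Kif21a and 0.56 for Rorb. Fewer genes or cells entered the counts at 200 UMIs, after thinning and in cells under 5000 UMIs. The cause of the moved counts was not tested in any setting. No Ceacam16-rich cell was called a doublet, so removing such cells says nothing about these results.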

Other observations

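Among the deep Ceacam16-rich cells, those poor in Malat1 had more translation and respiratory chain RNA than the others. Of 79 ribosomal protein genes in the cocktail library, 77 lay above 0 in the Malat1-poor cells relative to the other deep cells (median log2 ratio 0.44), and 75 of 78 did in the vehicle library (0.41). Nuclear-coded respiratory chain genes lay above 0 in 11 of 12 cases in the cocktail library (0.43) and in 12 of 12 in the vehicle library (0.42), while all 12 mitochondrially encoded genes lay below 0 in each library (−0.51 and −0.68). The medians over all genes were −0.21 and 0.04. Clu was at 78145 CPM in Malat1-poor against 48981 CPM in other deep cocktail cells, and at 105958 against 52389 CPM in vehicle cells. S100a1, a calcium-binding protein, was at 18159 against 8589 CPM and 19707 against 11635 CPM. Neat1, another nuclear noncoding RNA, had 0 UMIs in the Malat1-poor cells, against 117 CPM in other deep cocktail cells and 83.5 CPM in other deep vehicle cells. Jun was at 906 against 2179 CPM in cocktail cells and 653 against 1397 CPM in vehicle cells.

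Otog was at 409 CPM in Malat1-poor against 535 CPM in other deep cocktail cells (log2 ratio −0.39, −0.74 to −0.04), and at 95.6 against 452 CPM in vehicle cells (−2.24, −3.22 to −1.40). Among the other deep cells, 1 cocktail cell held 84 of the 408 Otog UMIs, and the 2 Otogl cells held 45 of the 157 vehicle Otog UMIs. The Malat1 limit was set after the values were seen, and these values describe 16 and 43 cocktail cells and 9 and 25 vehicle cells.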
